A study of Mus musculus with 44 samples.

Results

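Ribosomal protein genes encode the proteins that assemble with ribosomal RNA into the large (Rpl) and small (Rps) ribosomal subunits. They were taken here as all genes whose array symbol is Rpl or Rps followed by a digit, without the Rps6k kinases and annotated -ps pseudogenes. The rule found 61 genes on 89 probes, 35 Rpl and 26 Rps, of 19057 named genes in the series. Of these, 74 probes of 54 genes were above background often enough to be tested, and each value below is for a probe. Rps19bp1, a nucleolar protein that binds Rps19, and Rps23rg1, a retrotransposed relative of Rps23, carry matching symbols but are not ribosomal proteins, and Rps4l is annotated as a transcribed pseudogene.

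The arrays profiled spermatocytes (meiotic germ cells) and round spermatids (the haploid cells after meiosis) from testes of adult mice, 44 Illumina BeadChip arrays in 8 groups. Experiment 1 compared wild-type mice with Th2b+/tag mice, in which 1 allele of the testis histone TH2B carries His, Flag and Ha tags at its C terminus, with 6 biological replicates a group. Experiment 2 set wild-type mice against mice that carry the label kd for Th2b, which the design text says express no TH2B, with 5 biological replicates a group. Each experiment had its own wild-type mice. The labels give strain and exact age for none of the groups, do not say whether both cell types came from the same animals, and name their genotype field after brdt, another testis gene.

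Cytosolic ribosomes are built in the nucleolus, where ribosomal proteins join newly transcribed ribosomal RNA, and most cells keep the mRNAs of the subunit proteins at closely matched levels. Many of these mRNAs begin with a run of pyrimidines that lets mTOR signalling and La-related proteins control their translation. Male germ cells are known for making ribosomes of a particular composition: the X chromosome is silenced during meiosis, and autosomal copies of X-linked ribosomal protein genes, such as Rpl10l and Rpl39l in the mouse, stand in for them. Spermatids later store much of their mRNA untranslated while the chromatin is compacted.

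Values are log2 intensities after background correction and quantile normalization, and a difference of 1 is a doubling. A probe was called where limma's adjusted p, over all 22605 probes kept, was below 0.05. The median raw intensity was 91.4 to 119 over the arrays, and the number of probes above background (detection p below 0.05) was 15997 to 19348 an array. Of the ribosomal protein probes, 59 (48 genes) were above background on all 44 arrays. In all, 7 genes had no tested probe: Rpl14, Rpl17, Rpl21, Rpl6, Rps15a, Rps20 and Rps23. Rpl10, Rpl10l, Rpl7 and Rps27 were not analysed here. The number of arrays limits the precision of every value.

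The probe for H2bc1, the gene of TH2B, was above background on 0 of the 22 wild-type arrays. It was above background on 5 of 5 kd-labelled spermatocyte arrays, at 5.77 to 6.98, against a measured wild-type spermatocyte mean of 4.61. Set against the lowest signal above background on each wild-type array, the kd-labelled spermatocytes were at least 3.27-fold higher (limma adjusted p = 1.1e-13). In kd-labelled spermatids 1 of 5 arrays was above background and the difference was 0.37 (limma adjusted p = 0.287). The direction at this probe thus goes against a label of lowered expression. With no wild-type array above background, however, the probe cannot show a lowering, nor whether TH2B was lowered in these mice. These arrays are therefore called kd-labelled throughout, and each kd direction below is the direction between labels.

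Many ribosomal protein mRNAs were lower in round spermatids than in spermatocytes, in both wild types, and almost none was higher. In the experiment 1 wild type 38 of 74 probes fell and 1 rose, with a median difference of -0.26. That is 51.4% of the ribosomal protein probes lower and 1.35% higher, beside 32.0% lower and 26.7% higher over all probes tested, whose median was -0.03. In the experiment 2 wild type 39 fell and 1 rose (52.7% and 1.35%), with a median of -0.33, beside 33.5% lower and 25.9% higher over all probes, with a median of -0.04.

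The same held by count in the other genotypes. In Th2b+/tag mice 28 probes fell and 4 rose (37.8% and 5.41%), with a median of -0.11, beside 30.2% lower and 28.7% higher over all probes. In kd-labelled mice 46 fell and 2 rose (62.2% and 2.7%), with a median of -0.38, beside 32.9% lower and 26.0% higher over all probes. The groups of arrays did not overlap for 22 ribosomal protein probes in the experiment 1 wild type, 14 in tagged mice, 36 in the experiment 2 wild type and 38 in kd-labelled mice, of 74 each time. Over all probes the groups did not overlap for 32.2%, 33.7%, 51.0% and 45.7%, so these counts are near or below the background. In these bulk samples, fewer cells of a type and less RNA per cell cannot be told apart.

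Probes of both subunits were among those that fell. In the experiment 1 wild type 21 of 43 large-subunit probes and 16 of 29 small-subunit probes fell. In the experiment 2 wild type 22 and 16 fell, in tagged mice 15 and 12, and in kd-labelled mice 25 and 20. Over all probes tested 32.0%, 33.5%, 30.2% and 32.9% fell, in that order. The large-subunit count in tagged mice is near that background. Dim probes were called less often by count than bright ones. Of 12 probes with a mean level under 6, 3 fell in each wild type, a smaller share than over all probes. Of 25 with a mean over 12, 17 fell in the experiment 1 wild type and 13 in the experiment 2 wild type. Among the 59 probes above background on every array, 33 and 34 fell in the wild types, with medians of -0.27 and -0.34. The share among all probes of that kind was not computed.

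The fall, and its gap to all probes, depended in size on how the arrays were scaled. With each array only centred on its median, the median of all probes moved from -0.03 to -0.14 in the experiment 1 wild type. There 29 ribosomal protein probes fell, and their median moved from -0.26 to -0.19, much nearer to that of all probes. The share of all called probes that were higher in spermatids then went from 45.5% to 34.5% there, from 48.7% to 37.1% in tagged mice, from 43.6% to 36.7% in the experiment 2 wild type and from 44.2% to 34.4% in kd-labelled mice. With cyclic loess scaling 20 ribosomal protein probes fell and 2 rose in the experiment 1 wild type, and the medians became -0.06 there, 0.01 in tagged mice, -0.13 in the experiment 2 wild type and -0.16 in kd-labelled mice. The median direction in tagged mice therefore flipped with the scaling.

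With quantile normalization, the mean level over the 74 probes was also lower in spermatids array by array. In experiment 1 it ran from 9.78 to 10.02 in wild-type spermatocytes and from 9.51 to 9.69 in wild-type spermatids. In tagged mice it ran from 9.75 to 10.06 in spermatocytes and from 9.55 to 9.73 in spermatids. In experiment 2 the wild-type spermatocyte arrays lay at 9.92 to 10.07 and the spermatid arrays at 9.52 to 9.66, and the kd-labelled ones at 10.10 to 10.22 and 9.58 to 9.80. Spermatid arrays lay below spermatocyte arrays of the same genotype in all 4 pairs of groups, with no overlap. In tagged mice the ranges nearly met, at 9.728 and 9.745. These means were not computed with the other scalings.

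**Figure D1:**
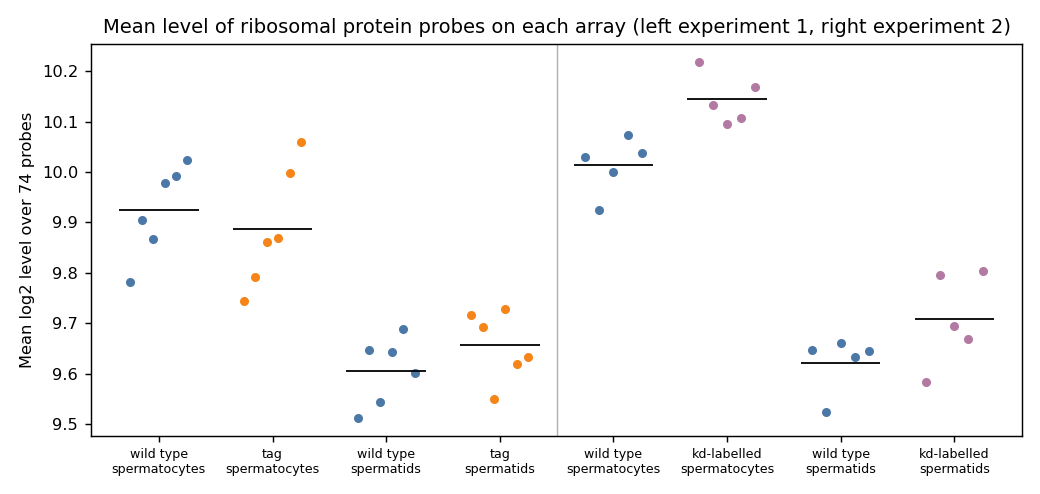
Mean log2 level over the 74 tested ribosomal protein probes on each array (points) and the mean of each group (line), experiment 1 on the left and experiment 2 on the right of the grey line. Spermatid arrays (9.51 to 9.80) sit below spermatocyte arrays (9.75 to 10.22) of the same genotype in every pair of groups; the vertical axis does not start at 0.

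Markers of other cell types moved with the stage comparison, and their part in it was not tested. The 4 tested of 7 Leydig cell markers were all lower in spermatids in each of the 4 genotype groups, with a mean log2 level over the 4 of 8.47 to 9.92 on spermatocyte arrays and 5.97 to 7.29 on spermatid arrays. Hsd3b1, Hsd3b6 and Lhcgr, which define Leydig cells, were not above background often enough to be tested. Of 6 tested macrophage and blood markers, 6, 4, 3 and 4 were higher in spermatids in the experiment 1 wild type, tagged mice, the experiment 2 wild type and kd-labelled mice. Of 13 tested spermatocyte markers of 16 listed, 6, 7, 5 and 5 were lower and 2, 4, 2 and 3 higher in spermatids, in the same order. The mean log2 level of the spermatid markers was 12.3 to 12.7 on all spermatid arrays, and 10.60 to 11.03 on experiment 2 wild-type but 10.85 to 12.44 on experiment 1 wild-type spermatocyte arrays.

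The 2 wild types share no array, and most of their calls met. There were 31 probes lower in both, which is 81.6% of those lower in experiment 1 and 79.5% of those lower in experiment 2, and 1 higher in both. Over all probes tested 27.8% were lower in both, that is 6287 probes, of 7229 lower in experiment 1 and 7579 lower in experiment 2. Among probes lower in 1 experiment, the share also lower in the other was thus no larger for ribosomal protein probes than over all probes. Out of all tested, 31 of 74 ribosomal protein probes were lower in both, a larger share than the 27.8% over all probes. A further 7 fell in experiment 1 alone and 8 in experiment 2 alone. The sign of the difference was shared by 65 of 74 probes. Across the 74 probes Pearson's r between the 2 wild-type differences was 0.873 and Spearman's rho 0.752, given as a description, since the probes of each experiment share its arrays and genes are not independent replicates.

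**Figure D2:**
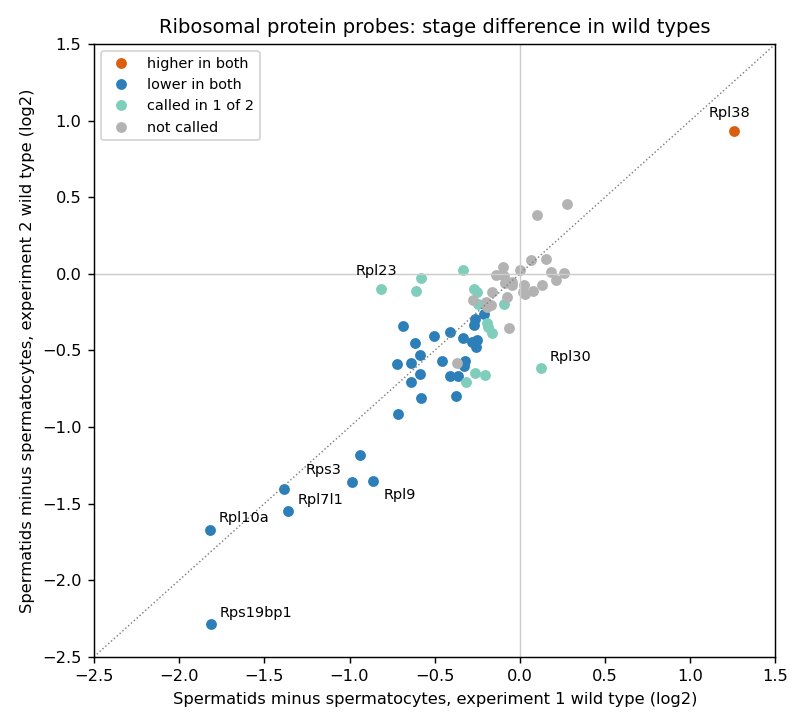
Difference between round spermatids and spermatocytes (log2) for the 74 ribosomal protein probes, experiment 1 wild type on the horizontal axis and experiment 2 wild type on the vertical axis; colours give the calls by limma and the dotted line marks equal differences. Most probes lie below 0 on both axes, Rpl10a and Rps19bp1 farthest, and 1 Rpl38 probe lies above 0 on both.

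Across all 4 genotype groups, 20 probes of 17 genes fell each time, 12 probes fell in 3 groups, 12 in 2, 11 in 1 and 19 in none. Over all probes tested, 23.0% fell in all 4 groups, 5.62% in 3, 6.57% in 2, 6.44% in 1 and 58.3% in none, so the count in all 4 is near the background and that in none is below it. The genes with a probe that fell each time were Rpl10a, Rpl22, Rpl27, Rpl3, Rpl31, Rpl36al, Rpl4, Rpl7l1, Rpl9, Rps10, Rps15, Rps19, Rps19bp1, Rps21, Rps24, Rps27l and Rps3. The groups below are described in turn: the subunit proteins that fell most, those that were never called, the paralogs with their parents, and the X-linked genes.

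Rpl10a, a protein of the L1 stalk through which used transfer RNA leaves the ribosome, showed the largest wild-type fall of any ribosomal protein. In experiment 1 wild-type spermatocytes its level was 11.38 at the lowest, 11.97 at the median and 12.14 at the highest, and in spermatids 9.81, 10.07 and 10.42. In experiment 2 the wild-type spermatocyte arrays read 12.34, 12.10, 12.30, 12.26 and 12.15, and the spermatid arrays 10.77, 10.43, 10.50, 10.72 and 10.38. No spermatid array came within 0.5 of a spermatocyte array in either experiment. The differences were -1.82 ± 0.15 (SE, limma adjusted p = 4.6e-14) and -1.67 ± 0.16 (5.06e-12). The fall was -1.91 in tagged and -1.56 in kd-labelled mice, so Rpl10a was 2.94 to 3.76 times lower in spermatids over the 4 groups.

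Rpl9, Rpl4, Rpl31 and Rps3 followed. Rpl9, a large-subunit protein near the stalk base, read 13.15, 12.82, 12.90, 13.00 and 13.08 in experiment 2 wild-type spermatocytes and 11.85, 11.62, 11.56, 11.58 and 11.60 in spermatids, without overlap. Its difference was -0.86 ± 0.15 in the experiment 1 wild type (limma adjusted p = 2.87e-06) and -1.35 ± 0.16 in the experiment 2 wild type (1.52e-09). In tagged mice it fell by 0.94 and in kd-labelled mice by 1.57. Rpl4, which lines the tunnel of the growing chain, fell by 0.94 and 1.18 in the wild types, and by 1.03 and 1.29 in tagged and kd-labelled mice. With no background correction the Rpl4 falls were 0.55, 0.76, 0.59 and 0.81 in that order.

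Rps3, a small-subunit protein at the mRNA entry site that also acts on damaged DNA, was measured by 2 probes. On the first, experiment 2 wild-type spermatocytes read 10.98, 10.76, 10.67, 10.89 and 11.03 and spermatids 9.55, 9.52, 9.41, 9.50 and 9.57. It fell by 0.98, 1.25, 1.36 and 1.37 in the experiment 1 wild type, tagged mice, the experiment 2 wild type and kd-labelled mice. On the second probe the falls were smaller, at 0.38, 0.40, 0.80 and 0.84, and all 4 passed the test. Both probes moved the same way, by amounts that differed.

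Rpl31, a protein at the exit of the tunnel, had 3 probes that fell in all 4 groups. The falls in the experiment 1 wild type were 0.59, 0.64 and 1.39, and those in the experiment 2 wild type 0.53, 0.71 and 1.40. The third probe read 6.15 to 7.61 in experiment 1 wild-type spermatocytes and 4.80 to 6.07 in spermatids, where 5 of 6 arrays were above background, and its falls in the wild types were 0.70 and 0.64 with no background correction. Rpl27, Rps10, Rps15, Rps19 and Rps21, all structural subunit proteins, fell by 0.34 to 0.68 in the experiment 1 wild type and by 0.34 to 0.81 in the experiment 2 wild type. A second Rps19 probe was not called in any group, with differences of 0.02, 0.09, -0.12 and 0.15. For Rps24 the probe that fell each time was dim, above background on 21 of 44 arrays, while the bright probe read -0.09, not called, in the experiment 1 wild type and fell by 0.19 in experiment 2, and the remaining tested probe read 0.02 and -0.07.

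Rps19bp1 also fell in all 4 groups. It read 7.34, 7.83, 7.73, 7.86 and 7.51 in experiment 2 wild-type spermatocytes and 5.41, 5.64, 5.21, 5.22 and 5.34 in spermatids. The differences were -1.81 ± 0.20 and -2.29 ± 0.22 in the wild types (limma adjusted p = 3.08e-10 and 7.84e-12), and -2.16 and -2.19 in tagged and kd-labelled mice. With no background correction they were -0.95 and -1.20 in the wild types and -1.01 and -1.16 in the others, smaller than those of Rpl10a, while with it they were larger than those of Rpl10a in all but the experiment 1 wild type. In tagged spermatids 4 of 6 arrays were above background. Without Rps19bp1 and Rps23rg1, 37 of 72 subunit protein probes fell in the experiment 1 wild type and 38 in the experiment 2 wild type.

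A set of subunit protein genes was not called in any stage comparison. Rpl41, the smallest ribosomal protein, read 14.48, 14.21, 14.32, 14.50 and 14.39 in experiment 2 wild-type spermatocytes and 14.50, 14.37, 14.46, 14.64 and 14.39 in spermatids. Its differences were 0.07 ± 0.07 and 0.09 ± 0.08 in the wild types (limma adjusted p = 0.447 and 0.349), and the arrays overlapped. Rpl26, which binds early in large-subunit assembly, had differences of 0.15 and 0.10, and Rps29, of the small-subunit head, -0.10 and 0.04. Rpl19, Rpl29 and Rps3a1 were not called either. A p that misses the threshold does not show that these levels were equal.

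Rpl38, a large-subunit protein needed in the mouse embryo for translating a set of Hox mRNAs, was the 1 subunit gene whose probes were called in opposite directions. On one probe experiment 2 wild-type spermatocytes read 6.92, 6.64, 6.79, 6.91 and 6.73 and spermatids 7.48, 7.72, 7.97, 7.77 and 7.70, all above. This probe rose in all 4 groups, by 1.26 ± 0.13 in the experiment 1 wild type (limma adjusted p = 4.8e-11), 0.77 in tagged mice, 0.93 ± 0.14 in the experiment 2 wild type (2.76e-07) and 0.69 in kd-labelled mice. With median centring its rises in tagged and kd-labelled mice were 0.33 and 0.32, not called (limma adjusted p = 0.0573 and 0.0887). The other probe read 13.74, 13.67, 13.65, 13.64 and 13.68 in spermatocytes and 13.34, 13.29, 13.41, 13.28 and 13.34 in spermatids. It fell by 0.35 in the experiment 2 wild type (limma adjusted p = 0.000935) and by 0.45 in kd-labelled mice, and its -0.19 in the experiment 1 wild type was not called (0.0504).

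**Figure D3:**
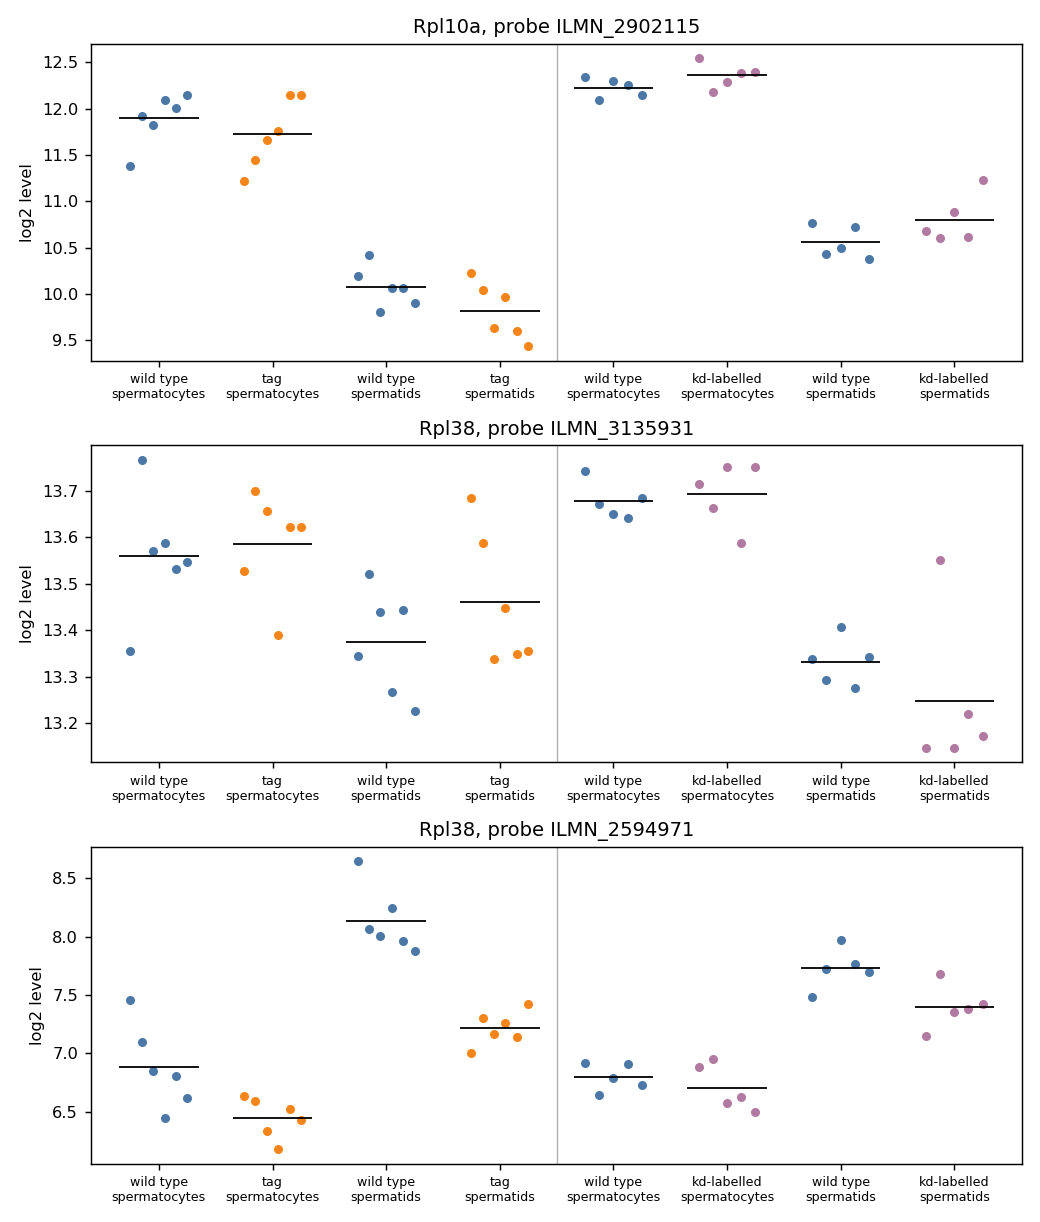
Log2 level on each array (points) with group means (lines) for the Rpl10a probe and the 2 Rpl38 probes, experiment 1 left and experiment 2 right of the grey line; the vertical axes do not start at 0 and differ between panels. Rpl10a is lower in spermatids in every genotype, the middle Rpl38 probe is lower in spermatids of experiment 2, and the bottom Rpl38 probe is higher in spermatids throughout and lower in tagged than in wild-type spermatids.

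Several other members differed between the experiments or their own probes. The test of the difference between the wild-type stage differences called 1 probe higher and 2 lower (1.35% and 2.7%), beside 0.916% higher and 0.889% lower over all probes. A Rpl23 probe fell by 0.82 in the experiment 1 wild type and read -0.10 in experiment 2, a difference of -0.71 (limma adjusted p = 0.00619), while a second Rpl23 probe fell by 0.26 and 0.29. A Rpl30 probe read 0.12 in the experiment 1 wild type, rose by 0.49 in tagged mice and fell by 0.62 and 0.63 in the experiment 2 wild type and kd-labelled mice, and the wild types differed by 0.74 (0.0205). The second Rpl30 probe read 0.13 and -0.07 in the wild types, not called. A Rps2 probe fell by 0.58 in the experiment 1 wild type and read -0.03 in experiment 2, a difference of -0.55 (0.0376), lost in 17 of 36 alternative settings. The second Rps2 probe fell in both wild types, by 0.50 and 0.41. All 3 calls of a difference between experiments were lost with median centring and without 4 experiment 2 wild-type arrays (replicates 1 and 2 of both cell types).

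The arrays behind these 3 differences lay apart by experiment. The Rpl30 probe read 9.12 to 9.51 in experiment 1 wild-type spermatids but 8.07, 7.86, 8.20, 7.99 and 8.08 in experiment 2. The Rpl23 probe read 13.28 to 13.64 in experiment 1 wild-type spermatids but 14.35, 14.29, 14.06, 14.30 and 14.14 in experiment 2. Experiment and mouse cohort cannot be told apart here.

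Paralogs were set beside their parent genes probe by probe, with no comparison of level between probes. Rpl36al, an autosomal copy of the X-linked Rpl36a, fell by 0.41 and 0.67 in the wild types and by 0.28 and 0.72 in tagged and kd-labelled mice. Rps27l, a copy of Rps27 that p53 induces in human cells, fell by 0.59, 0.43, 0.66 and 0.64 in the experiment 1 wild type, tagged mice, the experiment 2 wild type and kd-labelled mice. Rpl7l1, a nucleolar relative of Rpl7, fell by 1.36, 1.40, 1.55 and 1.30 on one probe, and on a second probe fell by 0.33 and 0.60 in the wild types, with -0.13 and -0.27 not called in the other genotypes.

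Rpl22, known for its need in mouse T cell development, fell by 0.71, 0.61, 0.92 and 0.93 in the same order. Its paralog Rpl22l1 was above background on 0 of 6, 0 of 6, 0 of 5 and 2 of 5 arrays of experiment 1 wild-type spermatocytes and spermatids and of experiment 2 wild-type spermatids and spermatocytes, and no stage difference was called. Rpl39l, the copy of X-linked Rpl39 that mouse spermatogenic cells express, read 5.68, 5.76, 5.96, 6.19 and 6.01 in experiment 2 wild-type spermatocytes and 5.44, 5.51, 5.86, 5.32 and 5.72 in spermatids. Its difference was -0.35 ± 0.20 (limma adjusted p = 0.128), and -0.07 in the experiment 1 wild type, where 5 of 6 spermatocyte and 3 of 6 spermatid arrays were above background.

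The 3 X-linked members were above background on all arrays, and none was called between stages in the wild types. Rpl36a read 8.08, 7.66, 6.78, 7.34 and 7.15 in experiment 2 wild-type spermatocytes and 8.12, 7.55, 7.64, 7.97 and 7.65 in spermatids, with differences of 0.10 and 0.38 in the wild types (limma adjusted p = 0.678 and 0.113). It rose by 0.53 in kd-labelled mice (0.026), a call lost in 7 of 25 alternative settings. Rpl39 had differences of 0.28, 0.21, 0.46 and 0.20, none called. Rps4x read -0.37 and -0.59 in the wild types, not called, and fell by 1.37 in kd-labelled mice (0.000327), where spermatocytes read 9.51, 8.57, 7.44, 8.09 and 7.63 and spermatids 6.76, 7.07, 6.81, 6.69 and 7.06. Whether X-linked and autosomal members differ was not tested.

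Promoters of the subunit genes were looked up in RefSeq (GRCm38.p6), which listed 45 of the 52 tested subunit genes, but not Rpl29, Rpl3, Rpl30, Rpl32, Rps14, Rps29 or Rps4l. The searched stretch ran from 250 bases before to 50 after the annotated start, both strands. CCGGAA, the core bound by ETS factors such as GABPA, occurred in 22 of 45 (48.9%) against 19.1% of the promoters of 17492 protein-coding genes. AAGATGG, as bound by YY1, occurred in 13.3% against 6.37%, TATAAA in 8.89% against 13.3%, and CCAAT in 28.9% against 39.0%. A pyrimidine start, a C and 4 further pyrimidines beginning within 5 bases of the annotated start on the sense strand, occurred in 20 genes (44.4%) against 18.7%.

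The promoter letters went with similar stage differences. Of 31 probes whose promoter holds CCGGAA, 10 fell in all 4 groups, and of 32 without it, 8 did. The median difference in the experiment 1 wild type was -0.26 with and -0.26 without a match, and in the experiment 2 wild type -0.35 and -0.35. Of 31 probes of genes with a pyrimidine start, 7 fell in all 4 groups, and of 32 without it, 11 did. A match is a description of letters in a window, and this comparison was given no test.

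Below, 6 promoters are shown from 80 bases before to 20 after the annotated start, 100 bases each, 5′ to 3′ on the gene's own strand (RefSeq, GRCm38.p6), with CCGGAA on either strand in capitals. They were chosen after the values were seen. Rpl10a, Rpl9 and Rpl31 fell in all groups, Rpl41 and Rpl26 were called in none, and Rpl3l is the gene with the largest tag difference below.
Rpl10a (chr17:28328391-28328490, plus strand): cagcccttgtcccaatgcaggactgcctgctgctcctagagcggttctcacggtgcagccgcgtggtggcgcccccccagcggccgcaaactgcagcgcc
Rpl9 (chr5:65391412-65391511, minus strand): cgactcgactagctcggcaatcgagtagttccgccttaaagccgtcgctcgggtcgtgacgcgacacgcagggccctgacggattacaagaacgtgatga
Rpl31 (chr1:39367771-39367870, plus strand): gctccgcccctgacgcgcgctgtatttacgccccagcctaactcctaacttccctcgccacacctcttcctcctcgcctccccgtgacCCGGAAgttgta
Rpl41 (chr10:128549149-128549248, minus strand): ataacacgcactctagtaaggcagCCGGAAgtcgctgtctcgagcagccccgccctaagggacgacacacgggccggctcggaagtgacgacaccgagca
Rpl26 (chr11:68901486-68901585, plus strand): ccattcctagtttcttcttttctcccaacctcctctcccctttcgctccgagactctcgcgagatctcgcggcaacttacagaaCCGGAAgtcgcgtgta
Rpl3l (chr17:24727746-24727845, plus strand): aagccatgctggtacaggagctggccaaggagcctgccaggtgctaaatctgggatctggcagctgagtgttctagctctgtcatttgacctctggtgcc
CCGGAA lies in this window in Rpl31, which fell, and in Rpl41 and Rpl26, which were not called, and in none of the other three.

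Genes that act with the ribosomal proteins are counted beside them, 1 probe a gene, from lists chosen by function. Over all probes 32.0% fell and 26.7% rose in the experiment 1 wild type, and 33.5% and 25.9% in the experiment 2 wild type. Of 71 tested mitochondrial ribosomal protein genes, which serve the separate ribosome of mitochondria, 49 fell and 5 rose in the experiment 1 wild type and 57 fell and 6 rose in the experiment 2 wild type, with medians of -0.58 and -0.72, a larger share lower than over all probes. Mrpl53 fell by 1.62 and 1.80. Of 44 tested ribosome biogenesis genes of 53 listed, 18 fell and 7 rose in experiment 1, and 24 fell and 5 rose in experiment 2. Sbds acts in the release of Eif6 from new large subunits. Sbds and Eif6 fell by 1.02 and 1.12 in experiment 1 and by 1.23 and 1.34 in experiment 2.

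Of 38 tested translation factor genes of 49 listed, 18 fell and 6 rose in the experiment 1 wild type, and 18 fell and 5 rose in the experiment 2 wild type. Eif4a2, an RNA helicase of initiation, fell by 2.59 and 2.72. Of 14 tested regulators of ribosomal protein synthesis of 24 listed, 5 fell and 5 rose in experiment 1, near the shares over all probes. Mlst8, a subunit of the mTOR complexes, fell by 2.01 and 2.21, while Tsc1, an upstream inhibitor of mTOR, rose by 0.78 and 0.85. Of 4 tested ribosomal proteins with other names, the stalk proteins Rplp0 and Rplp1 fell in both wild types, by 0.43 and 0.36 in experiment 1, and Rplp2 and Rpsa were not called in either.

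In Th2b+/tag spermatocytes hardly any ribosomal protein gene differed from wild type. Of 74 probes 1 was higher and 1 lower (1.35% each), beside 3.67% higher and 1.09% lower over all probes, and the median difference was -0.05 beside -0.03. The higher gene was Rpl3l and the lower an Rpl38 probe. In tagged spermatids 6 probes of 5 genes were higher and 2 lower (8.11% and 2.7%), beside 9.22% higher and 6.26% lower over all probes, with a median of 0.06 beside -0.03. These shares are near or below the background, so the set shows no excess of calls. The called genes are described singly below.

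Rpl3l, the paralog of Rpl3 that replaces it in striated muscle, showed by far the largest tag difference of any ribosomal protein gene. It lies on chromosome 17 at 24727826 to 24736143 (GRCm38.p6). Wild-type spermatocytes of experiment 1 read 4.44 at the lowest, 4.70 at the median and 5.34 at the highest, with 3 of 6 arrays above background, and tagged spermatocytes 5.48, 6.37 and 7.62, with 6 of 6. Wild-type spermatids read 4.35, 4.95 and 5.70, with 3 of 6 above background, and tagged spermatids 7.84, 7.95 and 8.45, with 6 of 6. Every tagged array lay above every wild-type array of its cell type.

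The tag differences of Rpl3l were 1.61 ± 0.23 in spermatocytes (limma adjusted p = 1.9e-06) and 3.02 ± 0.23 in spermatids (1.73e-14). With no background correction they were 0.67 and 1.59, still called, so the size of the difference depends on the processing. The difference between them, 1.41 ± 0.32, passed the test (0.00527) and was the 1 ribosomal protein probe called for that question, with 0 lower (1.35% and 0%), beside 1.91% higher and 0.571% lower over all probes. It was lost in 4 of 38 alternative settings, with adjusted p up to 0.0714. Rpl3l rose from spermatocytes to spermatids by 1.62 in tagged mice and by 0.21, not called, in the wild type. In experiment 2 its 4 groups read 4.76 to 5.72, with no kd call. The mean level of the spermatid markers ran from 10.87 (replicate 6) to 12.24 (replicate 1) on tagged spermatocyte arrays. Raw Rpl3l intensity was 124 and 265 on these 2 arrays, its lowest and highest there. The spermatocyte call held in all 26 alternative settings, a covariate for these markers among them. That covariate was not applied to the difference between cell types, and the part of spermatid RNA was not tested.

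Rpl3 itself did not pass the test for the tag. Its difference was -0.14 ± 0.09 in spermatocytes (limma adjusted p = 0.555) and 0.07 ± 0.09 in spermatids (0.705). Wild-type spermatids read 11.30, 11.46 and 11.59 at the lowest, median and highest and tagged spermatids 11.37, 11.58 and 11.62, which overlap. It fell between stages in every genotype, by 0.72, 0.51, 0.59 and 0.72.

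**Figure D4:**
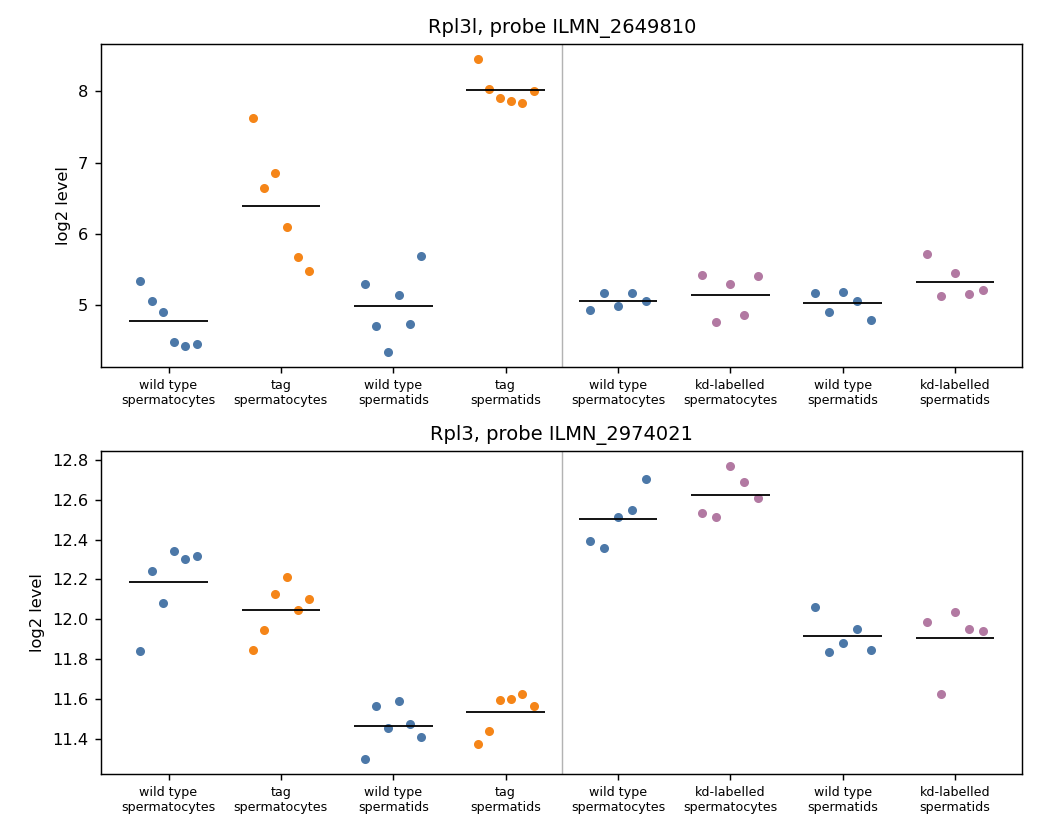
Log2 level of Rpl3l (top) and Rpl3 (bottom) on each array (points) with group means (lines), experiment 1 left and experiment 2 right of the grey line; the axes do not start at 0 and differ between panels. Rpl3l is higher on all 12 tagged arrays than on the wild-type arrays of the same cell type, while Rpl3 overlaps between genotypes and is lower in spermatids.

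The Rpl38 probe that rose in spermatids was lower in tagged mice. In spermatids the wild type read 7.88, 8.03 and 8.65 at the lowest, median and highest, and tagged mice 7.00, 7.21 and 7.42, without overlap. The differences were -0.92 ± 0.13 in spermatids (limma adjusted p = 3.69e-07) and -0.43 ± 0.13 in spermatocytes (0.0425), the second lost in 17 of 25 alternative settings. The other Rpl38 probe read 0.03 and 0.09, not called. The stage rise of the probe in the wild type and its tag difference in spermatids share the wild-type spermatid arrays.

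The remaining tag calls in spermatids were of smaller size. Rps4l read 10.32, 10.61 and 10.70 in wild-type and 10.86, 11.05 and 11.33 in tagged spermatids, and rose by 0.49 ± 0.11 (limma adjusted p = 0.000731). Rps2, a protein of the mRNA entry channel, rose on both probes, by 0.34 ± 0.10 (0.0135) and 0.36 ± 0.10 (0.0112). These calls were lost in 4 of 26 and 1 of 25 settings, both with cyclic loess. Rps14, of the small-subunit platform, rose by 0.24 ± 0.07 (0.0103), a call lost in 3 of 26 settings. Rpl19, of the large subunit, rose by 0.26 ± 0.09 (0.0397), a call lost in 11 of 26 settings. Rpl13a, known from human cells for silencing of inflammatory mRNAs, fell by 0.50 ± 0.16 (0.0216), lost in 6 of 26 settings. Peritubular and vessel markers were also higher in tagged spermatids for 3 of 11 tested, with a mean log2 level over the 11 of 5.57 to 5.96 in the wild type and 6.00 to 6.28 in tagged mice. Of 8 tested spermatogonia markers 1 was higher, Zbtb16, by 2.09, and of 6 macrophage and blood markers 1 was lower, Alas2. The part of these markers was not tested.

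In kd-labelled spermatocytes 1 of 74 ribosomal protein probes was higher and 0 lower by limma's adjusted p (1.35% and 0%), beside 0.717% higher and 0.787% lower over all probes. At an unadjusted p below 0.05 the counts were 11 and 1, beside 5.37% and 6.59% over all probes. Most differences were small and positive, 58 of 74 where 48.1% of all probes were positive, with a median of 0.09 beside -0.01 over all probes. In kd-labelled spermatids 0 probes were called in either direction (0%), beside 0.557% higher and 0.947% lower over all probes, and the median was 0.06 beside 0.00. At an unadjusted p below 0.05 the counts there were 4 higher and 1 lower, beside 4.34% and 5.37%. Cyclic loess scaling called 2 in kd-labelled spermatocytes.

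The called probe was one of 2 for Rps9, a small-subunit protein that guards decoding accuracy. It read 11.21, 11.06, 10.98, 11.09 and 10.95 in wild-type and 11.90, 11.44, 11.50, 11.17 and 11.51 in kd-labelled spermatocytes, with 1 kd-labelled array inside the wild-type range. The difference was 0.44 ± 0.12 (limma adjusted p = 0.031), lost in 11 of 24 alternative settings. The second Rps9 probe read 0.21 (0.387). X-linked Rps4x, at 1.12 ± 0.32 (0.071), Rpl39, at 0.70 (0.239), and Rpl36a, at 0.34 (0.562), were not called.

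Markers of tubule wall cells moved with the kd label in spermatocytes. Of 11 tested peritubular and vessel markers 4 were higher, Myl9, Bgn, Myh11 and Acta2, with a mean log2 level over the 11 of 5.23 to 5.86 in the wild type and 5.97 to 7.13 in kd-labelled mice, and of the list Cnn1 was not above background often enough to be tested. Of 6 tested Sertoli cell markers 1, Vim, was higher. The part of these markers in the small shift of the ribosomal protein probes was not tested. The difference of the kd effect between the cell types was called for 0 of 74 probes in either direction, beside 0.00885% higher and 0.0398% lower over all probes. At an unadjusted p below 0.05 it was again 0 of 74, beside 2.09% and 1.91%.

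Rpl29, a large-subunit protein that also binds heparin at the cell surface, had the largest kd difference, which did not pass the test without a replicate block and rested on 4 wild-type arrays. On one probe wild-type spermatocytes read 4.84, 4.72, 9.81, 9.34 and 9.10 and wild-type spermatids 4.47, 4.77, 10.08, 8.82 and 9.02. The kd-labelled arrays read 9.09, 10.44, 9.12, 9.27 and 10.35 in spermatocytes and 8.52, 10.22, 8.75, 8.85 and 9.93 in spermatids. Wild-type replicates 1 and 2 thus lay far below all other arrays in both cell types. In experiment 1 every array of the probe read 9.59 to 10.42.

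The second Rpl29 probe set the same 4 arrays apart by less, at 9.46 and 9.56 in spermatocytes and 9.48 and 9.62 in spermatids, while the other wild-type arrays of experiment 2 read 10.21 to 11.18. The kd differences were 2.09 ± 0.74 in spermatocytes (limma adjusted p = 0.179) and 1.82 ± 0.74 in spermatids (0.329) on the first probe, and 0.63 (0.169) and 0.54 (0.329) on the second. With the replicate number as a block both probes were called in spermatocytes (limma adjusted p = 0.0431 and 0.049). Without the 4 low wild-type arrays, an alternative added after the values were seen, the difference of the first probe in spermatids was -0.055 (0.997). Both probes lie in Rpl29 on chromosome 9 at 106428889 to 106431568 (GRCm38.p6).

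**Figure D5:**
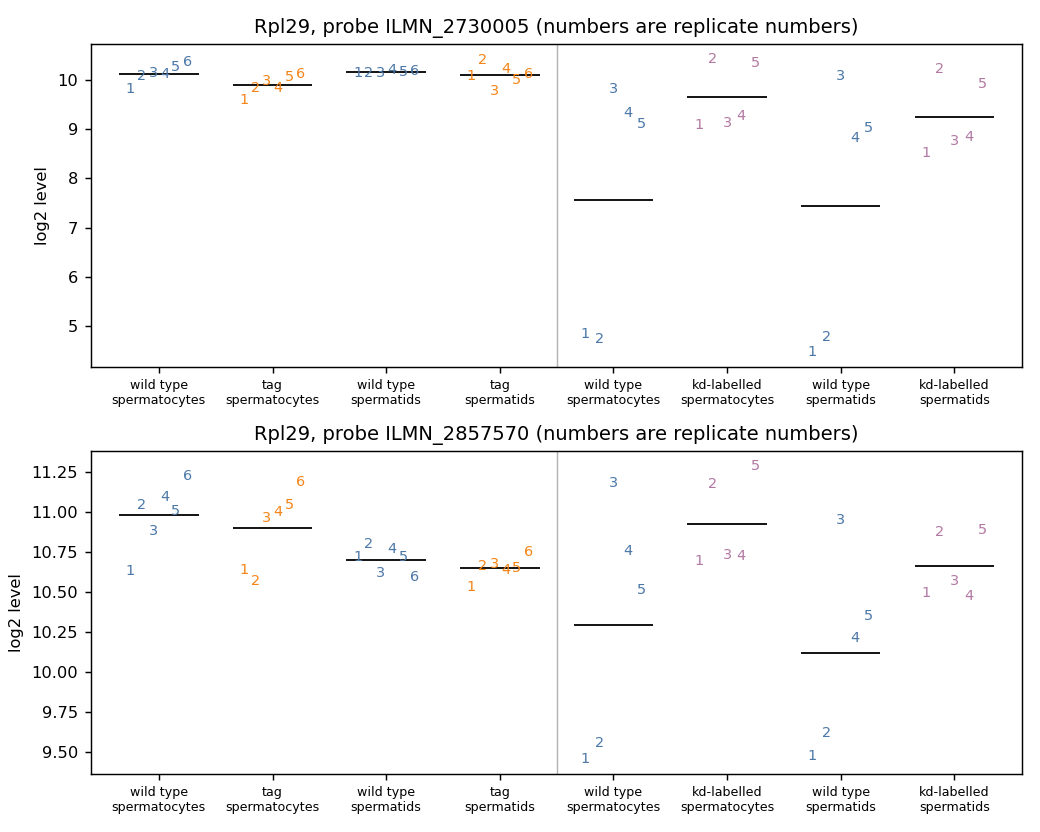
Log2 level of the 2 Rpl29 probes on each array, drawn as the replicate number, with group means (lines), experiment 1 left and experiment 2 right of the grey line; the axes do not start at 0. Wild-type replicates 1 and 2 of experiment 2 are the lowest arrays in both cell types on both probes, and all other arrays of the top probe read 8.52 or more.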

How the data were processed

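Total RNA was labelled with biotin and hybridised to Illumina mouse BeadChips, per the labels. The deposited, non-normalized table holds 1 intensity and 1 detection p-value per probe and array, as the file headers name them. A second deposited table holds the authors' processed intensities on a linear scale, with a median of 104 on all 44 arrays. They lay within a median of 0.00306 log2 of quantile-normalized raw intensities, so no background correction is visible in them, and how they were made is not stated in any source used here. They served only as an alternative. The 44 arrays were matched to samples by title, and no further value columns were present (0). Probes were named from the array annotation, and 18 naming several genes stayed unnamed.

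Intensities were background-corrected by normexp with the detection p-values, given an offset of 16, normalized between arrays by quantiles and log2-transformed (neqc, limma 3.58.1, R 4.3.3). Probes with a detection p below 0.05 on at least 5 arrays were kept, 22605 of 45281. A linear model with 8 group means and empirical Bayes gave each comparison, with Benjamini-Hochberg adjustment over all kept probes. Adjusted p-values in the text are limma's. The steps were tested on simulated data.

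The genes and lists were chosen with earlier results of these data known. Named were, in each comparison, up to 8 called members with the largest rise and 8 with the largest fall, the paralogs with their parents, the X-linked members, genes with probes called in opposite directions, and up to 4 genes of each other list with the smallest p. Rpl19, Rpl26, Rpl29, Rpl41, Rps29 and Rps3a1 in stage or kd comparisons, the neighbours of Rpl3l and the remaining genes that fell in all genotypes were singled out after their values were seen. Same-numbered samples correlated above 0.1 in every pair for both wild types between cell types and for wild type against tag in both cell types (lowest 0.117), but not in tagged or kd-labelled mice between cell types or wild type against kd, so the block was an alternative. Where nothing ties samples to animals, p-values measure only the spread between these samples.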

Additional observations from a re-analysis of the deposited data

Results flagged for a closer look

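Among 31 ribosomal protein probes the text names, 12 of 248 groups of 5 or 6 arrays (4.84%) had 1 array set far from its neighbours by Dixon's test, which chance gives for about 1 group in 20. Wild-type spermatocyte replicate 1 of experiment 1 gave 3 of them, with Rpl36a at 8.02 (nearest array 7.14), Rpl7l1 at 7.67 on one probe (nearest 8.44) and Rpl9 at 12.36 (nearest 12.89). Kd-labelled spermatid replicate 2 gave another 3, with Rpl22 at 5.45 (nearest 5.73), Rpl3 at 11.63 (nearest 11.94) and Rpl7l1 at 6.98 (nearest 7.27).

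The others were spread over the arrays. In tagged spermatids Rpl22 stood high at 5.99 on replicate 2 (nearest 5.61), Rpl3l at 8.45 on replicate 1 (nearest 8.03) and Rps2 at 13.61 on replicate 3 (nearest 13.32). The second Rpl7l1 probe stood high at 5.76 on experiment 1 wild-type spermatocyte replicate 4 (nearest 5.39) and low at 5.39 on experiment 2 wild-type spermatocyte replicate 5 (nearest 5.74). Rpl9 stood high at 11.85 on experiment 2 wild-type spermatid replicate 1 (nearest 11.62).

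For 4 probes an effect differed between groups by limma's test of the difference. The tag effect on Rpl3l was 1.41 larger in spermatids than in spermatocytes (adjusted p = 0.00527). The wild-type stage difference of experiment 1 minus that of experiment 2 was -0.71 for a Rpl23 probe (limma adjusted p = 0.00619), 0.74 for a Rpl30 probe (0.0205) and -0.55 for a Rps2 probe (0.0376). The test between experiments was added after the data were seen.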

How the results depend on the processing

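Over 59 named values and their alternatives, 1441 of 1537 repeats kept direction and side of the threshold, 92 lost the call, 3 gained one and 1 reversed, and 39 of the 55 called values never lost their call. The reversal was Rpl29 in kd-labelled spermatids, -0.055 without 4 experiment 2 wild-type arrays (added after seeing the data). The number of ribosomal protein probes called moved by over 1.5 times as follows. In tagged spermatocytes (2) it was 1 with median centring, cyclic loess, 1 probe a gene, only the groups or only the experiment of the comparison, array weights, or without 4 spermatocyte arrays (replicate 1 of the experiment 1 wild type, 1 and 2 of tagged and 1 of kd-labelled mice). In tagged spermatids (8) it was 5 with median centring, 4 with cyclic loess, 5 with only the groups compared, and 13 with a covariate for the spermatid markers. In kd-labelled spermatocytes (1) it was 0 with median centring, 1 probe a gene, only the groups compared or without the 4 spermatocyte arrays, 2 with cyclic loess, array weights or a random replicate block, and 4 with the replicate block. For the experiment 1 wild-type stage comparison (39) it was 22 with cyclic loess. For the tag effect between cell types (1) it was 3 with no background correction or the authors' processed values, and 0 with median centring, cyclic loess, only the groups or only the experiment. For the stage difference between experiments (3) it was 0 with median centring, 1 with cyclic loess and 0 without the 4 experiment 2 wild-type arrays. The causes of these moves were not tested.

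Leaving out 1 array at a time gave 1 to 2 calls in tagged spermatocytes, 6 to 10 in tagged spermatids, 0 to 2 in kd-labelled spermatocytes and 0 in kd-labelled spermatids. The stage counts ran from 34 to 42, 28 to 33, 37 to 40 and 43 to 47 in the experiment 1 wild type, tagged mice, the experiment 2 wild type and kd-labelled mice. The tag effect between cell types gave 1 to 2 calls (2 without experiment 1 wild-type spermatocyte replicate 1), the kd effect 0, and the difference between experiments 2 to 3. The Rpl38 call in tagged spermatocytes was lost without wild-type replicate 1, 2, 3 or 5 or tagged replicate 3, 4, 5 or 6 (limma adjusted p up to 0.12). The Rps9 call was lost without wild-type replicate 2, 3, 4 or 5 or kd-labelled replicate 1, 3 or 5 (up to 0.219), and 2 probes were called without wild-type replicate 1. In tagged spermatids 1 Rps2 probe was lost without wild-type replicate 6 or tagged replicate 3 (up to 0.0539), Rpl13a without wild-type 3 or tagged 1 or 6 (up to 0.0877), and Rpl19 without wild-type 2, 3 or 4 or tagged 1, 4, 5 or 6 (up to 0.0983). A Rpl30 probe in tagged mice between stages was lost without spermatocyte replicate 1 (0.0569), and Rpl36a in kd-labelled mice without spermatocyte replicate 2, 3 or 4 or spermatid replicate 3 or 5 (up to 0.106). The Rps2 difference between experiments was lost without any 1 of 13 arrays (up to 0.0944), and a Rpl29 probe was called in kd-labelled spermatocytes without wild-type replicate 3 (0.0271).

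With the replicate block the counts were 2 and 10 in tagged spermatocytes and spermatids, 0 in kd-labelled spermatids, and 41, 33, 42 and 50 between stages. The block ended no call of a named probe and made those of the 2 Rpl29 probes in kd-labelled spermatocytes (limma adjusted p = 0.0431 and 0.049). Signal over background limits the dim members: Rpl22l1, Rpl39l and Rpl3l in the wild type lay near background.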

Other observations

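Over all probes 9.22% were higher and 6.26% lower in tagged spermatids, and the counts for genes that act with the ribosomal proteins are given beside these shares with no test of the lists. Of 44 tested ribosome biogenesis genes 5 were higher and 2 lower, against 0 in tagged spermatocytes. Gnl3, a nucleolar GTPase, rose by 0.83 (limma adjusted p = 6.82e-05), Nop56, of the box C/D particles that methylate ribosomal RNA, by 0.83 (0.00222), Efl1, the GTPase that works with Sbds, by 0.73 (0.00526) and Sbds by 0.40 (0.00172). Of 38 tested translation factors 0 were higher and 4 lower: Eef1g fell by 0.57 (3.45e-06), Eif1b by 0.48 (0.0198), Eif1a by 0.45 (0.011) and Eef1d by 0.44 (0.0265). Eef1g and Eef1d are subunits of the factor that reloads eEF1A with GTP.

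Among 14 tested regulators of ribosomal protein synthesis 4 were higher and 2 lower in tagged spermatids. Rheb, the activator of mTOR complex 1, rose by 0.50 (limma adjusted p = 0.000327) and Mtor by 0.41 (0.0125), while Gabpa, an ETS factor, fell by 0.39 (0.0182). Of 71 mitochondrial ribosomal protein genes 4 were higher and 5 lower, near the same background. In kd-labelled spermatocytes Tsc2, an inhibitor of mTOR complex 1, fell by 0.60 (0.00193), and its -0.29 in kd-labelled spermatids was not called (0.339). Of the 71 mitochondrial ribosomal protein genes 2 were higher and 2 lower in kd-labelled spermatocytes, beside 0.717% higher and 0.787% lower over all probes. In kd-labelled spermatids 3 were higher and 0 lower, beside 0.557% and 0.947%. Mrps12 was higher in kd-labelled mice in both cell types, by 0.93 and 0.70 (0.00221 and 0.0358), and Mrps17 by 0.57 and 0.66 (0.047 and 0.013).

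Rps2 and Rpl3l, both higher in tagged spermatids, lie 5898 bases apart on chromosome 17 (GRCm38.p6). Within 100000 bases of Rpl3l there were 17 tested probes of 12 genes, a window chosen after the values were seen. In tagged spermatids 6 of these probes were called higher: Rpl3l, both Rps2 probes, Gfer at 0.46 (limma adjusted p = 0.000181), Zfp598 at 0.55 (0.00538) and Tbl3 at 0.41 (0.0455). The calls of Rpl3l and Rps2 led to the window, so they say nothing about its other genes. Those had 14 probes, among which Gfer, Zfp598 and Tbl3 were called, beside 9.22% higher over all probes. In tagged spermatocytes Rpl3l alone of the 17 probes was called. Msrb1, the next tested gene after Rpl3l, read 0.01 (0.977) in tagged spermatids and Meiob -0.34 (0.279).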
